A study of Mus musculus with 2 samples.

Results

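The genes described here are the 8 cystatins named Cst3, Cst8, Cst9, Cst10, Cst11, Cst12, Cst13 and Cstl1, all annotated on mouse chromosome 2. They were taken by name from the 43346 genes of the deposited gene tables, after the gene identifiers without their version were matched to GENCODE names on mm10, and all 8 were found. Their identifiers in the tables are ENSMUSG00000027447.6 (Cst3), ENSMUSG00000027442.6 (Cst8), ENSMUSG00000027445.3 (Cst9), ENSMUSG00000033156.5 (Cst10), ENSMUSG00000036958.5 (Cst11), ENSMUSG00000027443.6 (Cst12), ENSMUSG00000036924.3 (Cst13) and ENSMUSG00000055177.11 (Cstl1). The tables come from testis of 1 adult male mouse of the inbred strain C57BL/6J, 10 weeks old and carrying no labelled allele or treatment. Its polyA mRNA was sequenced from 2 technical replicate libraries of 1 biological replicate, and replicate 2 was the later one. All values belong to 1 group, with no condition to set it against, so each level describes this animal, and each difference is between the library of replicate 2 and the library of replicate 1.

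Cystatins are small secreted or cytosolic proteins. The classical ones inhibit papain-like cysteine proteases such as the cathepsins by inserting a wedge into the active site, made of the amino end, a central loop with the pattern glutamine, any residue, valine, any residue, glycine, and a later loop with a proline-tryptophan pair. A subgroup first described in the male reproductive tract, named after CRES (cystatin-related epididymal spermatogenic protein, the product of Cst8), belongs to the family by its fold and its cysteines and departs from the consensus in the central loop. Cst3 encodes cystatin C, a secreted inhibitor made by most tissues. Cst9 encodes testatin, first described in the fetal testis at the time the cords form. Cst11 and Cst12 encode CRES2 and CRES3, relatives of CRES known from the epididymis. Cst13 is also named Cymg1, Cstl1 is also named RCET1, and Cst10 is also named DD72.

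The coding sequence of the central loop is shown for each member because it separates the classical inhibitors from the reproductive members. Each line holds 27 coding bases, 5′ to 3′ on the strand of the gene, from the GENCODE M21 transcripts on mm10, and the capitals mark the 5 codons that correspond to the loop. The third base of the capitals is the last base of an exon in all 8 genes, so each stretch is joined from 2 exons. Cst12, whose loop fell in a gap of the alignment to Cst3, was placed by that exon junction alone.
Cst3: cgtaagCAGCTCGTGGCTGGAgtgaac
Cst10: agccagCAGGTTGTGGCTGGGaagaac
Cstl1: cagatgCAGTTGACCACAGGGgtggag
Cst8: aaacttCAGATCACAGACCGAatggaa
Cst11: atgaagCAGGTGACAGGTCACctggag
Cst12: cttcgtCAGAAATATACGCTGaaatat
Cst13: caggagCAGATCACAGACAGTctggag
Cst9: agggagAAGGTAAATTTTCCAaccgtg
The Cst3 stretch lies on the minus strand at chr2:148875153-148875161 and chr2:148872913-148872930. The Cst8 stretch lies on the plus strand at chr2:148800207-148800215 and chr2:148804583-148804600.

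The full pattern of glutamine, valine and glycine codons at the 3 fixed places was present in 2 of the 8 members, Cst3 and Cst10. Cstl1 kept the glutamine and the glycine codons, Cst8, Cst11, Cst12 and Cst13 kept the glutamine codon alone, and Cst9 kept none of the 3. The 6 members without the full pattern nevertheless shared the gene's build with the other 2. All 8 coding sequences were cut by 2 exon junctions, and the middle coding exon had 114 bases in 5 members, 111 in Cst12 and Cstl1, and 105 in Cst11. The translated coding sequences had between 137 and 148 codons, 4 cysteine codons after the loop in all 8 members, and a proline-tryptophan pair after the loop in 7, Cst12 being the exception. Aligned protein identity to Cst3 was 40.7% for Cst10 and between 30.4% and 32.1% for the others, and over all 28 pairs of members it ranged from 19.4% to 40.7% with a median of 28.1%. The longest run of coding bases shared by any pair of members was 15 bases. No count was divided between members: the deposited posterior standard deviation of the gene-level count was 0 for all 8 genes in both libraries, and no annotated gene overlapped a member.

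Of the 8 members, 6 were detected, here meaning at least 1 TPM in both libraries, and 2 were not. TPM is a relative transcript level scaled for transcript length and for the library. Cst8 and Cst9 were the most abundant, followed by Cst12, Cst13, Cstl1 and Cst3 in order of their mean, and Cst10 and Cst11 were at or near 0. Together the members amounted to 1726 TPM in replicate 2 and 2076 TPM in replicate 1, or 0.173% of that library's TPM in replicate 2, and 0.208% in replicate 1. For comparison, 11725 of 21474 protein-coding genes, 54.6%, were detected by the same limit, and the median protein-coding gene stood at 4.60 TPM in replicate 2 and 1.89 TPM in replicate 1. In a whole-tissue sample such as this, fewer cells of a type and less RNA per cell cannot be told apart.

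**Figure D1:**
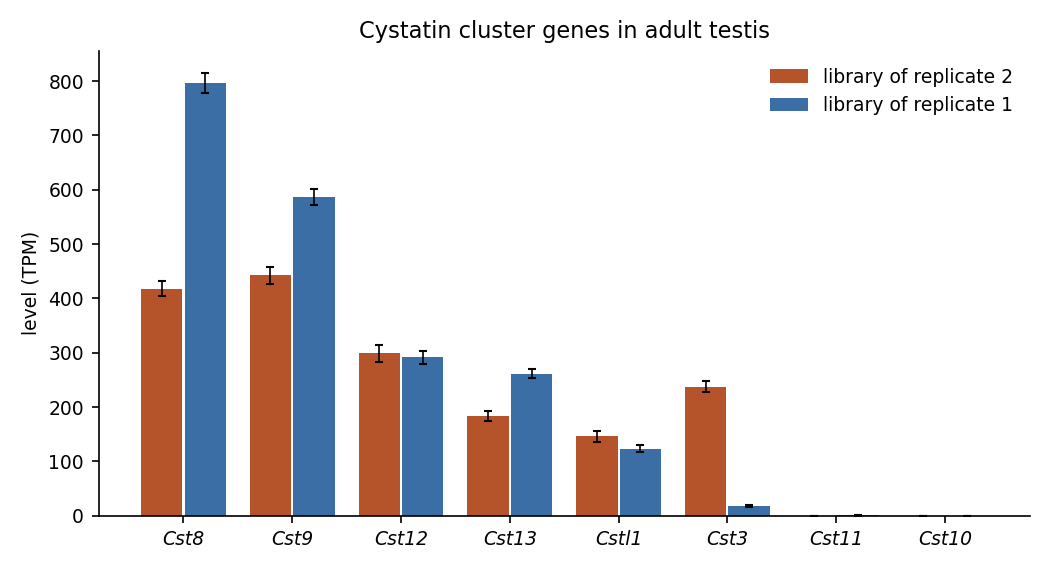
Level in TPM (vertical axis) of the 8 cystatin cluster genes (horizontal axis, ordered by mean), with the library of replicate 2 to the left of the library of replicate 1 and bars of exact 95% Poisson intervals, which cover counting error only. Cst8 and Cst9 stand highest, Cst3 is at 237 TPM in replicate 2 and 17.4 TPM in replicate 1, and Cst11 and Cst10 lie at the baseline.

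Cst8 had 418 TPM in replicate 2 (3361 expected counts) and 797 TPM in replicate 1 (7248 expected counts), a mean of 607 ± 268 TPM (SD, n = 2 technical libraries). It was higher than 98.4% of protein-coding genes in replicate 2 and than 99.5% in replicate 1. Cst9 had 442 TPM in replicate 2 (3076 expected counts) and 586 TPM in replicate 1 (6350 expected counts), a mean of 514 ± 102 TPM (SD, n = 2 technical libraries). Testatin transcripts, known from the fetal gonad, stood in this adult testis above 98.5% of protein-coding genes in replicate 2 and 99.2% in replicate 1. The order of these genes differed between the libraries: the ratio of Cst8 over Cst9 in TPM was 0.944 in replicate 2 (exact 95% interval 0.899 to 0.992) and 1.36 in replicate 1 (1.31 to 1.41). Without length scaling the same ratio, now of expected counts, was 1.09 in replicate 2 (1.04 to 1.15) and 1.14 in replicate 1 (1.10 to 1.18), so Cst8 was the higher in both.

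Cst12 had 299 TPM in replicate 2 (1509 expected counts) and 291 TPM in replicate 1 (2312 expected counts), and its mean of 295 ± 5.28 TPM (SD, n = 2 technical libraries) had the smallest spread of the 6 detected members relative to its level. Cst13 had 184 TPM in replicate 2 (1520 expected counts) and 261 TPM in replicate 1 (3377 expected counts), a mean of 223 ± 54.9 TPM. Cstl1 had 146 TPM in replicate 2 (827 expected counts) and 123 TPM in replicate 1 (1141 expected counts), a mean of 135 ± 16.1 TPM. The 3 genes held the same order in TPM, Cst12 over Cst13 over Cstl1, in both libraries. Cst12 exceeded Cst13 by 1.63-fold in replicate 2 (exact 95% interval 1.51 to 1.75) and by 1.11-fold in replicate 1 (1.06 to 1.18). Counted without length scaling, Cst12 and Cst13 could not be separated in replicate 2, where their ratio was 0.993 (0.924 to 1.07), and Cst12 was the lower in replicate 1, at 0.685 (0.649 to 0.722).

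Cst3, the widely expressed inhibitor, had 237 TPM in replicate 2 (2209 expected counts) and 17.4 TPM in replicate 1 (253 expected counts). It ranked 4 among the members in replicate 2, above 96.2% of protein-coding genes, and 6 in replicate 1, above 75.3%. Cst3 made up 13.7% of the members' summed TPM in replicate 2 and 0.839% in replicate 1. With Cst3 set aside, the other members summed to 1489 TPM in replicate 2 and 2059 TPM in replicate 1. Its mean of 127 TPM carried an SD of 155 TPM (n = 2 technical libraries), which is larger than the mean, so that its place relative to Cst13 and Cstl1, and in unscaled counts also to Cst12, was not fixed by these libraries.

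Cst10, the other member with the full loop pattern, had 0 expected counts in both libraries. A count of 0 allows up to 3 counts, or 0.410 TPM in replicate 2 and 0.263 TPM in replicate 1. Cst11 had 0 expected counts in replicate 2, which allows up to 0.503 TPM, and 4 expected counts in replicate 1, or 0.430 TPM (exact 95% Poisson interval 0.117 to 1.10 TPM). Neither gene's transcripts were detectable at this depth above those limits, which cover counting error only. Of the 2 members that kept the full loop pattern 1 was detected, and of the 6 that did not 5 were, where 54.6% of protein-coding genes were. These numbers are too small to tie detection to the loop pattern.

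Over the 15 pairs of detected members, the higher gene in TPM was the same in both libraries for 12 pairs, each with an exact 95% interval that excluded equality in both libraries. The 3 pairs that turned round were Cst8 with Cst9, Cst13 with Cst3, and Cstl1 with Cst3. Cst13 over Cst3 was 0.776 in replicate 2 and 15.01 in replicate 1, and Cstl1 over Cst3 was 0.617 in replicate 2 and 7.08 in replicate 1. Without length scaling 11 pairs kept their order, 3 turned round and 1, Cst12 with Cst13, was not separated in replicate 2. The 3 then were Cst13 with Cst3, Cstl1 with Cst3, and Cst12 with Cst3, whose ratio of expected counts was 0.683 in replicate 2 and 9.14 in replicate 1. Among the 5 pairs that are next to each other in the order of mean levels, 3 kept their order, and Cst8 with Cst9 and Cstl1 with Cst3 did not. For those last pairs the means differed by less than the larger SD of the pair, and for the 3 pairs that kept their order they differed by more.

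The detected members stand close together in the genome. On mm10, Cstl1 (chr2:148750358-148755433, plus strand) and Cst3 (chr2:148871722-148875692, minus strand) bound a stretch of 125 kb with 9 annotated genes, all of the cystatin family. Between them lie, in order, Cst11 (chr2:148768609-148771497, minus strand), 8030411F24Rik, Cst12 (chr2:148789361-148793546, plus strand), Cst8 (chr2:148798785-148805595, plus strand), Cst13 (chr2:148820081-148830410, plus strand), Cst9 (chr2:148835147-148838738, plus strand) and 9230104L09Rik. The RefSeq table gives 8030411F24Rik as Cstdc1 and 9230104L09Rik as Cstdc2, both cystatin-domain genes that are not among the 8 members. Detected in both libraries were 8 of the 9 genes, Cst11 being the exception. 8030411F24Rik had 22.3 TPM in replicate 2 and 47.3 TPM in replicate 1, and 9230104L09Rik had 31.2 TPM in replicate 2 and 65.1 TPM in replicate 1. Every detected member in the stretch other than Cst3 exceeded both of them in each library.

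**Figure D2:**
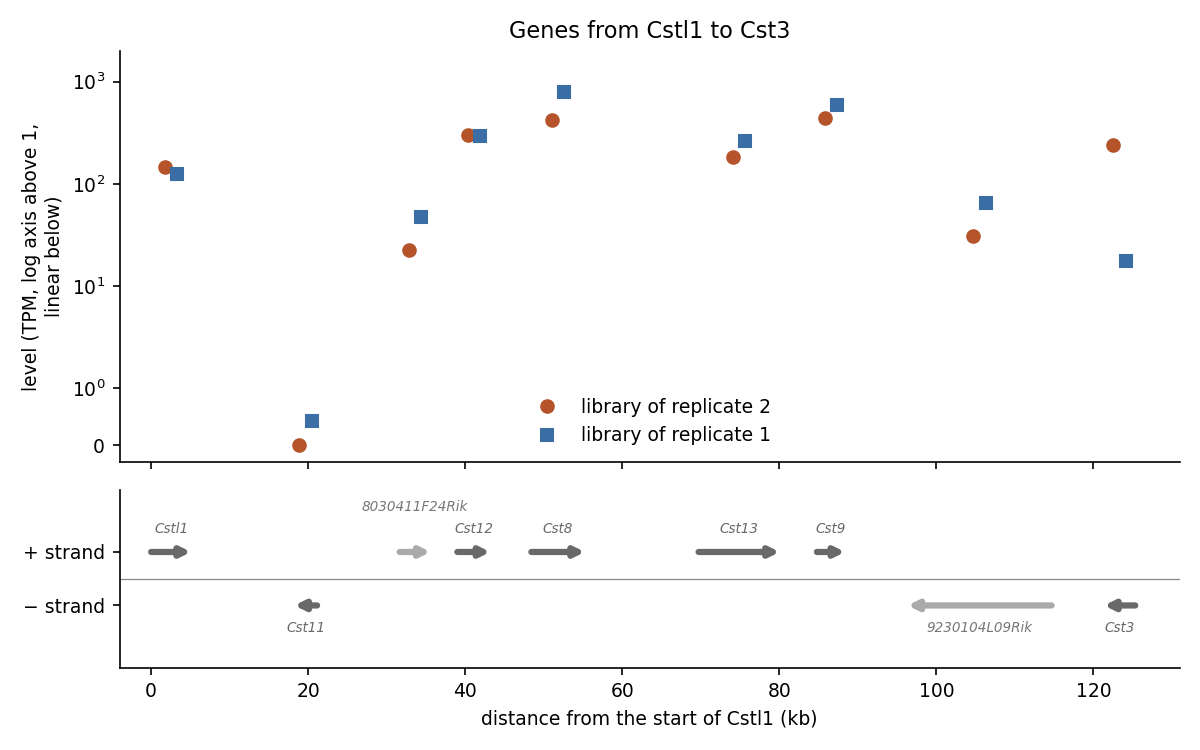
Levels in TPM (upper panel, circles for replicate 2 and squares for replicate 1, vertical axis logarithmic above 1) and position and strand (lower panel) of the 9 genes from Cstl1 to Cst3, against distance from the start of Cstl1 in kb. Paler arrows are the 2 cystatin-domain genes outside the 8 members. Cst11 is the gene near 0 in the upper panel, while the genes on either side of it, Cstl1 and 8030411F24Rik, lie at 146 and 22.3 TPM in replicate 2.

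The genes examined outside this stretch, out to the nearest protein-coding gene on each side, stood below its detected genes in both libraries. Cst10 (chr2:149405057-149410293, plus strand) is 529 kb beyond Cst3, and of the 7 other genes annotated in that interval only Gm10750 reached 1 TPM in either library, with 1.87 TPM in replicate 2 and 0.700 TPM in replicate 1. On the other side the nearest protein-coding gene, Napb, which encodes a protein of the SNAP family of membrane fusion factors, had 1.33 TPM in replicate 2 and 2.35 TPM in replicate 1. Beyond Cst10 the nearest one, Syndig1, which encodes a synaptic membrane protein, was listed at 0 TPM in both libraries. Both strands of the stretch held abundant genes, and the undetected Cst11 lay between Cstl1 and 8030411F24Rik, which were both detected.

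The promoters differed in CpG content. In the RefSeq windows of 300 bases, from 250 before to 50 after the gene start, the letters CG, which read alike on both strands, occurred 13 times for Cst3, 3 times for Cst9 and Cst12, 1 time for Cst8, Cstl1 and Cst10, and 0 times for Cst13. The median of 32851 mouse promoters was 7, and 62.1% of them held fewer than Cst3. Cst11 had no matching entry.

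Transcript shares were uneven between the libraries for Cst8 and Cstl1. IsoPct, the percent of a gene's transcript level given to each annotated transcript, put 99.4% of Cst8 in Cst8-201 in replicate 2 and 38.25% in replicate 1. The remainder in replicate 1, 61.75%, was given to Cst8-203, against 0.520% in replicate 2. In expected counts Cst8-203 had 9.80 in replicate 2 (posterior SD 5.23) and 3411 in replicate 1 (posterior SD 63.1). Cst8-201 had 3348 in replicate 2 and 3837 in replicate 1, so by expected counts it still held 52.9% of Cst8 in replicate 1. Cst8-203 is a processed transcript with no annotated coding sequence, 507 bases long, against 768 bases for Cst8-201. It begins 118 bases further along the first exon and lacks the first 143 bases of the second exon, chr2:148799888-148800030, which hold the start codon of Cst8-201. The last 185 bases of that exon and the 2 exons after it are common to both. All bases of Cst8-203 also lie in Cst8-201, so only the junction of its first 2 exons is its own. The shares are a model-based split of the reads.

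This assignment enters the level of the gene, since TPM divides by length. The effective length of Cst8, the mean number of start positions a fragment could have, was 588 bases in replicate 2 and 419 bases in replicate 1, while that of Cst9, which has 1 annotated transcript, was 508 bases in replicate 2 and 499.5 bases in replicate 1. When each gene's expected count was instead divided by the effective length of its longest transcript, Cst8 came to 393 in replicate 2 and 542 in replicate 1, on the scale of TPM. On that scale Cst9 stood at 442 in replicate 2 and 586 in replicate 1, above Cst8 in both libraries. The mean ± SD of Cst8 in TPM given above thus includes a change in the length that was assigned to it. By the longest transcript Cst12 came to 237 in replicate 2 and 233 in replicate 1, and Cst13 to 184 in replicate 2 and 261 in replicate 1. Their order then differed between the libraries.

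Cstl1 was spread over 3 coding transcripts. Cstl1-203 held 63.2% in replicate 2 and 57.2% in replicate 1, Cstl1-202 held 35.1% in replicate 2 and 21.5% in replicate 1, and Cstl1-201 held 1.69% in replicate 2 and 21.3% in replicate 1. Cstl1-201 and Cstl1-203 have coding sequences of the same length, 423 bases, and the posterior SD of their counts in replicate 1 was 113 each, on counts of 252 and 736. Cstl1-202 lacks 156 bases of the second exon, chr2:148750999-148751154, and its coding sequence has 267 bases. The missing piece ends at the exon junction in the loop, so Cstl1-202 lacks the glutamine codon at the start of the capitals in the Cstl1 line, and its own posterior SD was 10.8 counts on 193 in replicate 2 and 7.79 counts on 153 in replicate 1.

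The other detected members had a single dominant transcript. Cst12-202 held 97.96% of Cst12 in replicate 2 and 92.4% in replicate 1, with the rest in Cst12-201, whose coding sequence has 387 bases against 426. Cst3-201 held 99.9% of Cst3 in replicate 2 and 97.0% in replicate 1. Cst9 and Cst13 have 1 annotated transcript each.

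**Figure D3:**
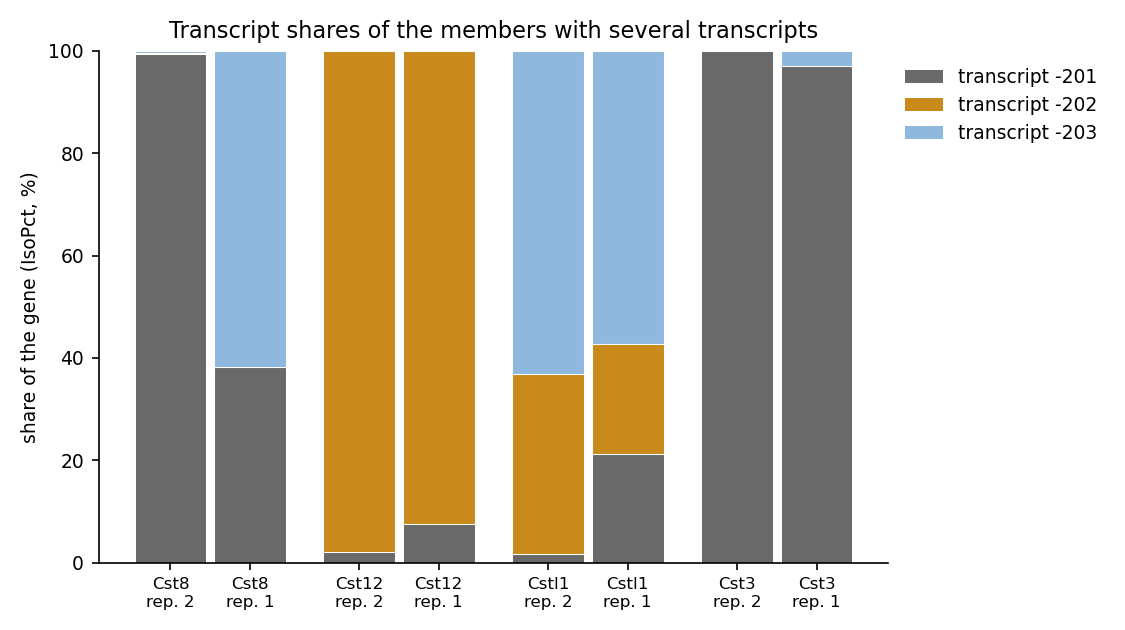
Share of each gene's level (IsoPct, percent, vertical axis) given to its annotated transcripts, for the 4 detected members with several transcripts, with replicate 2 left of replicate 1. Cst8-203 takes 61.75% of Cst8 in replicate 1 and 0.520% in replicate 2, and Cst12 and Cst3 keep 1 dominant transcript in both.

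The libraries were then compared gene by gene on their expected counts. They held 20675551 expected counts in replicate 2 and 31995377 in replicate 1. A gene was tested where its counts averaged at least 10, by a two-sided exact conditional binomial test with TMM-scaled library sizes and Benjamini-Hochberg adjustment, and called where the adjusted p was under 0.05 and the ratio at least 2. With 1 library on each side the test compares the reads of these libraries, and it measures no spread between animals. By that rule 55.6% of the 18589 tested genes were called, 32.2% higher and 23.3% lower in replicate 2. With library totals in place of TMM the share of higher genes among the calls moved to 70.3%, against 58.0%, and the median log2 ratio of all tested genes moved to 0.29, against 0.01.

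Of the 6 members tested, 1 was called, Cst3, which was higher in replicate 2. Its scaled count in replicate 2 was 11.1-fold that in replicate 1. The log2 ratio was 3.47 (exact 95% interval 3.29 to 3.67, −log10 of the adjusted p 497.8 by the exact binomial test). With no limit on the ratio 5 of the 6 members had an adjusted p under the threshold, where 83.2% of all tested genes did. Cst8, Cst9, Cst13 and Cst12 had log2 ratios of -0.76, -0.70, -0.80 and -0.27, with Cst12 at 0.01 when library totals were used and at 0.04 in TPM. Cstl1 had -0.11 (exact 95% interval -0.25 to 0.02, adjusted p = 0.0996 by the exact binomial test), and 0.17 with library totals and 0.24 in TPM. The median over the 6 tested members was -0.48, against 0.01 over all tested genes. Over so few genes, 1 call among 6 beside 55.6% of all tested genes sets nothing apart about the members.

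Cst3, the member of highest GC content, had the highest ratio, and over all tested genes the ratios rose with GC content. Among the other members the order was not strict: Cst8, with 46.9% GC, was at -0.76 and Cst9, with 44.7%, at -0.70. Among all tested genes with a known sequence, in 100 bins of equal size, the median log2 ratio was -1.98 in the bin of lowest GC (median 35.2%) and 5.24 in the bin of highest GC (median 64.5%). The most abundant transcript of Cst3 had a GC content of 57.2%, against 44.7% for Cst9 and Cst13, 46.5% for Cst12, 46.9% for Cst8 and 49.9% for Cstl1, and the median of tested genes was 49.1%. The bin of Cst3 had a median log2 ratio of 3.06, and Cst3 lay 0.41 above it. Measured from their own bins, Cst12 lay 0.29 above, Cst9 0.24 above and Cst13 0.13 above, while Cst8 was at -0.16 and Cstl1 at -0.23. With the bin median taken out, none of the 6 members was called by the exact test at a ratio of 2, where 19.6% of 18404 genes were.

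**Figure D4:**
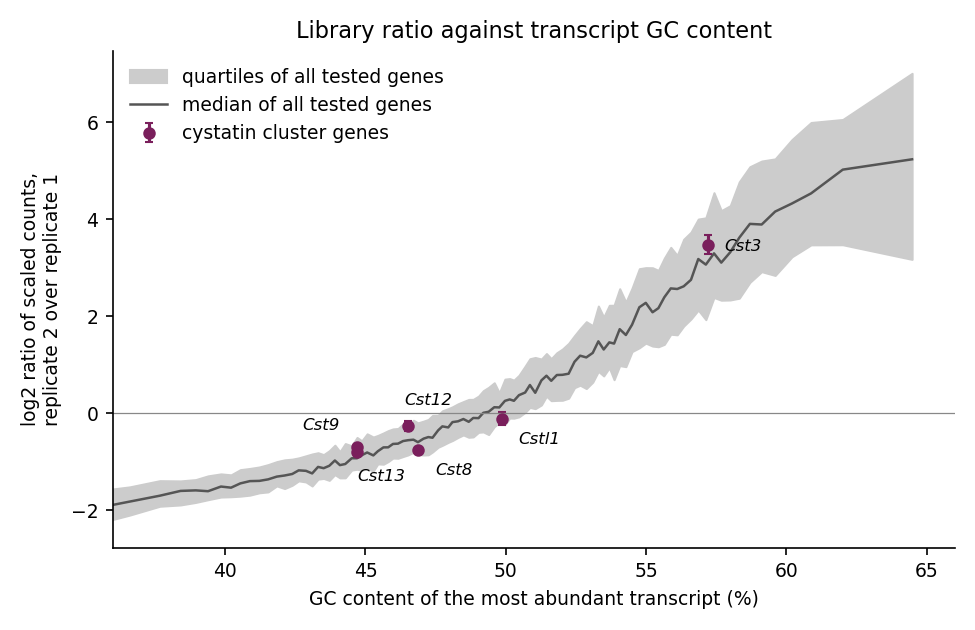
Log2 ratio of scaled expected counts, replicate 2 over replicate 1 (vertical axis), against GC content of the most abundant transcript in percent (horizontal axis), for the 6 tested members (points with exact 95% intervals) and for all tested genes (line for the median and band for the quartiles of 100 GC bins). Cst3 lies at 57.2% GC and 3.47, where the median of its bin is 3.06, and the other members lie below 50% GC with ratios between -0.80 and -0.11.

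The most GC-rich stretch of Cst3 lies at the start of its coding sequence. It is shown here beside the most GC-rich stretch of Cst8 because these genes lie at the opposite ends of the members' ratios in TPM. In scaled counts Cst13, at -0.80, was the lowest member, with Cst8 at -0.76. Each line is the stretch of 60 coding bases with the highest GC content in its gene, 5′ to 3′ on the strand of the gene, from the same transcripts and build.
Cst3: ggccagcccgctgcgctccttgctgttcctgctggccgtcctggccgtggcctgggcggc
Cst8: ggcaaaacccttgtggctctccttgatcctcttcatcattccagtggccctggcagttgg
The Cst3 stretch, chr2:148875316-148875375 on the minus strand, has a GC content of 76.7%, and the Cst8 stretch, chr2:148799987-148800046 on the plus strand, has 55.0%. Over the whole coding sequence GC content was 57.7% in Cst3, 47.4% in Cst10, 47.3% in Cstl1, 46.2% in Cst12, 44.7% in Cst9, 42.0% in Cst13 and 41.7% in Cst8.

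Marker genes of the somatic cells of the testis, in which cystatin C is known to be made, also differed between the libraries. Of 15 Sertoli cell markers 8 were called higher in replicate 2 and none lower, where 32.2% of all tested genes were higher and 23.3% lower, with a summed level of 1996 TPM in replicate 2 and 1474 TPM in replicate 1. Of 9 macrophage markers 5 were called higher and 1 lower, with sums of 93.9 TPM in replicate 2 and 52.0 TPM in replicate 1. Of 8 Leydig cell markers 2 were called higher and 1 lower, with sums of 2241 TPM in replicate 2 and 604 TPM in replicate 1. Insl3, the insulin-like hormone of Leydig cells with a GC content of 63.6%, had 1630 TPM in replicate 2, the larger part of that library's Leydig sum, and 83.2 TPM in replicate 1, where it was below Cyp17a1. By comparison, Cyp17a1, a steroid-making enzyme with 49.2% GC, had 243 TPM in replicate 2 and 225 TPM in replicate 1. By mean level the highest Sertoli markers were Clu, at 1031 TPM in replicate 2 and 836 TPM in replicate 1, and Ctsl. The calls rest on expected counts, in which Clu, Trf and Gata4 had log2 ratios of 1.53, 1.61 and 1.65. In TPM these genes fell short of a ratio of 2. Trf had 28.4 TPM in replicate 2 and 22.4 TPM in replicate 1, and Gata4 had 22.7 TPM in replicate 2 and 12.3 TPM in replicate 1. By mean level the highest macrophage markers were Lyz2, at 30.8 TPM in replicate 2 and 15.9 TPM in replicate 1, and Mrc1, at 13.1 TPM in replicate 2 and 29.3 TPM in replicate 1. The 5 macrophage markers called higher were C1qa, C1qb, C1qc, Csf1r and Cd68, with GC contents from 52.9% to 59.5%, while Lyz2 was not called and Mrc1, at 43.4% GC, was called lower. The GC contents of the 8 Sertoli markers called higher ran from 50.1% (Trf) to 65.5% (Amh), and those of the 7 not called from 44.7% (Ctsl) to 60.9% (Inhbb). No marker of these 3 lists was at 0 in replicate 2, and Amh alone was at 0 in replicate 1. The part of these cells and of GC content in the Cst3 level was not tested.

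Markers of germ cells were abundant in both libraries. All 11 spermatocyte markers and 11 of 12 round spermatid markers were detected. The spermatocyte list summed to 7503 TPM in replicate 2 and 9135 TPM in replicate 1, led in mean level by Ldhc, a lactate dehydrogenase of germ cells, and Mael, a piRNA pathway gene. The round spermatid list summed to 3085 TPM in replicate 2 and 2441 TPM in replicate 1, led in mean level by Crem, a transcription factor of haploid germ cells, and Zpbp2, a gene of the acrosome. Of the spermatocyte markers 6 of 11 were called lower in replicate 2, beside 23.3% of all tested genes, and none higher. Sycp1, Hormad1, Sycp2 and Sycp3, which were among the 6, had GC contents from 34.6% to 37.4% and log2 ratios from -2.25 to -1.92. The bins with median GC contents of 35.2%, 36.6% and 37.67% had median log2 ratios of -1.98, -1.825 and -1.70. Mael and Dmc1, also among the 6, had 46.6% and 42.1% GC and log2 ratios of -1.38 and -1.13. Mael was well below the medians of the bins at 46.52% and 46.71%, which were -0.56 and -0.55. Dmc1 was near that of the bin at 42.12%, -1.29. Of the round spermatid markers 5 of 12 were called higher, beside 32.2% of all tested genes, and 2 lower. The 2 were Zpbp, with 40.3% GC and a log2 ratio of -1.27, and Spaca1, with 49.5% GC and -1.26. The bin at 40.21% had a median of -1.54, and the bins at 49.39% and 49.59% had 0.03 and 0.12. The part of GC content in these calls was not tested.

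Because Cst8, Cst11 and Cst12 are also known from the epididymis, the duct attached to the testis, 20 epididymal markers were examined beside them. Of these 20 markers 3 were detected, and the list summed to 26.7 TPM in replicate 2 and 67.1 TPM in replicate 1. The highest were Crisp1, at 19.3 TPM in replicate 2 and 53.8 TPM in replicate 1, and Rnase10, at 4.66 TPM in replicate 2 and 6.23 TPM in replicate 1. The lipocalin genes Lcn5, Lcn6, Lcn8, Lcn10 and Lcn12, which mark the epididymal epithelium, were at 0 in both libraries, as were Bsph1, Pate4 and Ovch2. In all, 13 of the 20 were at 0 in replicate 2 and 11 in replicate 1. Of 6 tested, 4 were called lower in replicate 2 and none higher, with a median log2 ratio of -1.53. Over all tested genes 23.3% were called lower and 32.2% higher. Adam7 was detected at 1.08 TPM in replicate 2 and 2.53 TPM in replicate 1. The part of epididymal tissue in the levels of Cst8 and Cst12 was not tested.

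The enzymes that classical cystatins inhibit were represented mainly by Ctsl. Of 22 genes listed as papain-like cathepsins and legumain, with Tinag and Tinagl1 included, 9 were detected. Their list summed to 468 TPM in replicate 2 and 325 TPM in replicate 1, and 11 of its genes were at 0 in replicate 2 and 10 in replicate 1. Ctsl, which encodes cathepsin L and is also known as a product of Sertoli cells, had 332 TPM in replicate 2 and 243 TPM in replicate 1. Lgmn, which encodes legumain, an asparagine-specific protease inhibited by some cystatins through a separate site, had 43.9 TPM in replicate 2 and 14.8 TPM in replicate 1. Ctsb, encoding cathepsin B, had 27.5 TPM in replicate 2 and 13.0 TPM in replicate 1, and Ctso, encoding cathepsin O, had 9.73 TPM in replicate 2 and 18.0 TPM in replicate 1. Of the 11 tested genes of the list 4 were called higher in replicate 2, Lgmn and Tinagl1 among them. Called lower were 2, Ctso among them. Over all tested genes 32.2% were called higher and 23.3% lower. The median log2 ratio of the list was 0.14, against 0.01 over all tested genes. The 5 detected members without the full loop pattern summed to more TPM than this whole list in each library. Cst3 alone, at 237 TPM in replicate 2 and 17.4 TPM in replicate 1, was below Ctsl in both.

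Other cystatins were scarce. Of 28 further names of the cystatin superfamily 20 were matched in the tables, and 4 of them were detected, with a summed level of 74.6 TPM in replicate 2 and 129 TPM in replicate 1. The highest were 9230104L09Rik and 8030411F24Rik, the neighbours described above, followed by Cstb, which encodes the cytosolic inhibitor cystatin B, at 17.6 TPM in replicate 2 and 10.2 TPM in replicate 1. Gm5416, named here with no role, had 1.22 TPM in replicate 2 and 3.71 TPM in replicate 1. Both neighbours were called lower in replicate 2, with log2 ratios of -1.37 for 8030411F24Rik and -1.35 for 9230104L09Rik and GC contents of 44.9% and 44.8%. These ratios were below the medians of the bins with median GC contents of 44.70% and 44.87%, which were -0.93 and -0.87. No gene of this list was called higher, among 4 tested, where 32.2% of all tested genes were called higher and 23.3% lower. In these libraries the secreted cystatins of the cluster made up most of the family's TPM.

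Inhibitors of other protease classes were abundant too, with Pebp1 and Spink2 above every member in replicate 2 and Cst8 above all of them in TPM in replicate 1. With counts divided by the length of its longest transcript, Cst8 came to 542 in replicate 1, below Spink2. Of 23 measured genes 17 were detected, and their list summed to 3780 TPM in replicate 2 and 1451 TPM in replicate 1. Pebp1, which encodes a phosphatidylethanolamine-binding protein with reported protease inhibitor activity, had 2071 TPM in replicate 2 and 234 TPM in replicate 1, with a GC content of 56.5%. Spink2, a serine protease inhibitor of the acrosome, had 984 TPM in replicate 2 and 692 TPM in replicate 1. Serpinb6a, an intracellular serpin, had 210 TPM in replicate 2 and 245 TPM in replicate 1, and Serpina5, the protein C inhibitor, had 95.3 TPM in replicate 2 and 81.4 TPM in replicate 1. Of 19 tested genes 6 were called higher in replicate 2, Pebp1 among them, and 2 were called lower. The shares over all tested genes were 32.2% higher and 23.3% lower.

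For each detected member the 3 protein-coding genes with the most similar pair of levels were taken by distance in log2(TPM + 0.1) over the 2 libraries. With only 2 points this likeness describes levels and nothing else. Nearest to Cst8 were Mpc2 (410 TPM in replicate 2 and 799 TPM in replicate 1), Nectin3 and Cfap36. Nearest to Cst9 were Bag1 (444 TPM in replicate 2 and 576 TPM in replicate 1), Crem and Dnajb6, and Crem is the round spermatid marker with the highest mean level. Among those nearest to Cst12 were Oser1 and Gm6657, nearest to Cst13 were Atxn7l3b, Dnaja4 and Lancl2, and nearest to Cstl1 were Erh, Cnbd2 and Cypt2. Nearest to Cst3 were Ppp1r32 (233 TPM in replicate 2 and 18.5 TPM in replicate 1), Cchcr1 and Cystm1. The distances of the genes named ran from 0.02 to 0.19 on the log2 scale.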

How the data were processed

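Per the deposited notes, the authors aligned each library to mm10 with annotation release M4 and quantified it against the transcriptome. For the aligner and the quantifier, names are not given in the sources here. Both libraries have a gene and a transcript table. The authors deposited expected counts (estimated reads, not always whole), TPM and FPKM levels, and the percent of each gene given to each transcript. The posterior standard deviations were read as a signal the authors deposited, and lengths were used as deposited.

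Expected counts were rounded, and the count without a gene identifier was 1.56e-05% of replicate 1. Library sizes were scaled by TMM (edgeR 4.0.16), with 0.5 added to each count for ratios. With 1 library on each side edgeR's quasi-likelihood test could not be fitted, so an exact binomial test was used (scipy 1.17.1). It was tried on Poisson counts simulated from the pooled profile of both libraries, scaled by totals, with known folds in some genes. These counts held no library difference that varies with GC content, so they cannot show how the test behaves under one. Intervals are exact (95%) and, like the limit of 3 counts, cover counting error only, since PCR copies cannot be told from separate molecules. DESeq2 1.42.0 gave alternative size factors. Names, coordinates and coding sequences came from GENCODE M21 (GRCm38), promoters and synonyms from RefSeq on GRCm38.p6. GC content is that of the transcript with the highest mean TPM, known for 99.0% of tested genes. Alignments used BLOSUM62 (Biopython 1.88). Strand-specific counting is not stated, so reads of genes and antisense partners could not be told apart, though no annotated gene overlapped a member.

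All 8 members, transcripts holding at least 5% of a member, genes of the locus reaching 1 TPM and the nearest coding gene outside it, the 4 highest genes of each list (2 for cell type markers), and the 3 genes nearest in level were named. A gene that this rule takes is not reported here. Other named genes were chosen after their values were seen. The members and the lists were chosen with earlier results of these data known.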

Additional observations from a re-analysis of the deposited data

How the results depend on the processing

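No paired analysis was possible because the 2 libraries form 1 group. The number of members detected was 6 at limits of 0.5 and 5 TPM, at 1 FPKM, with posterior means, and without either replicate (6 to 6). Leaving out a library gives no value for the library test. Members called numbered 1 in each alternative except 2: 5 with no ratio limit and 0 after GC correction. Genes called numbered 10331, against 4376 at a ratio of 4 or more and 3598 after GC correction, and within 1.5 times under the others. Cst3 fell to a log2 ratio of 0.41 after GC correction, where its bin median of 3.06 is taken out by construction. Directions turned for Cst12 (0.01456 with library totals, 0.29 after GC correction, 0.03649 in TPM, 0.002481 in FPKM), Cstl1 (0.17 with library totals, 0.24 in TPM, 0.21 in FPKM), Cst9 (0.24 after GC correction) and Cst13 (0.13 after GC correction). The median log2 ratio of all tested genes was 0.27 in TPM and 0.29 with library totals, so for both scales Cst12 and Cstl1 were below the median gene. The cause was not tested. Cst8 and Cst9 exchanged ranks 1 and 2 when counts were divided by the length of the longest transcript, and Cst3 and Cstl1 ranks 6 and 5. The 2 libraries of 1 animal limit every value.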
